A study of Mus musculus with 2 samples.

Results

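The genes that build, organise, bind and cut the hyaluronan matrix of the follicle were examined on the arrays of mouse ovaries cultured with tachykinin receptor (TKR) ligands. They are 9 genes of 20660 with a named probe, chosen as all probes of Has1, Has2, Has3, Tnfaip6, Ptx3, Vcan, Cd44, Hyal1 and Hyal2 that carry a RefSeq accession of these genes, which gave 16 of the 55681 probes of the array. Mouse ovaries at 2 weeks of age were divided and kept in culture for 3 days with TKR agonists or with TKR antagonists, each ligand at 1 μM. The agonists were [Sar9, Met(O2)11]-SP for TACR1, GR-64349 for TACR2 and a succinylated peptide for TACR3, and the antagonists were a TACR1 blocker, GR-94800 for TACR2 and SB218795 for TACR3. Both groups were thus ligand-treated, no untreated array was analysed here, and the antagonists were given together. Which of the study's mouse strains the ovaries came from and how many were used is not given in the sources used here. RNA from each group was put on 1 single-colour array, on which a fluorescent dye reports how much transcript binds each probe. With 1 array per group the groups cannot be tested against each other, and every ± below is the image software's own error for a spot and not the spread between ovaries.

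Hyaluronan is a long unbranched sugar chain that synthases in the cell membrane spin out into the space between cells. Before ovulation, granulosa and cumulus cells make large amounts of it around the oocyte, and the chains are held together by proteins: TSG-6, the product of Tnfaip6, carries heavy chains of the serum protein inter-alpha-inhibitor onto hyaluronan, pentraxin 3 (Ptx3) binds these heavy chains, and versican (Vcan) binds the chain itself. CD44 is the main cell-surface receptor of hyaluronan, and the hyaluronidases cut it. In the adult ovary this programme follows the LH surge and needs prostaglandins and EGF-like ligands, whereas ovaries at the age studied here do not ovulate.

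The software marks a spot as well above background when its signal clearly exceeds the noise around it. Of the 16 member probes, each printed at 1 spot, 8 were well above background on both arrays, 5 on the agonist array only, 0 on the antagonist array only and 3 on neither. By gene, Tnfaip6, Vcan, Cd44, Hyal1 and Hyal2 were measured on both arrays, Has1, Has2 and Has3 on the agonist array only, and Ptx3 on neither. Thus 3 of the 8 genes detected at all were detected with the agonists only, against 5.20% of the 16284 genes detected on at least 1 array. Of those 16284 genes, 15260 were detected on both arrays and 846 on the agonist array only. Few were left for the antagonist array only, so the count of 0 there is no result about the members. No member spot was saturated or marked as an outlier.

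**Figure D1:**
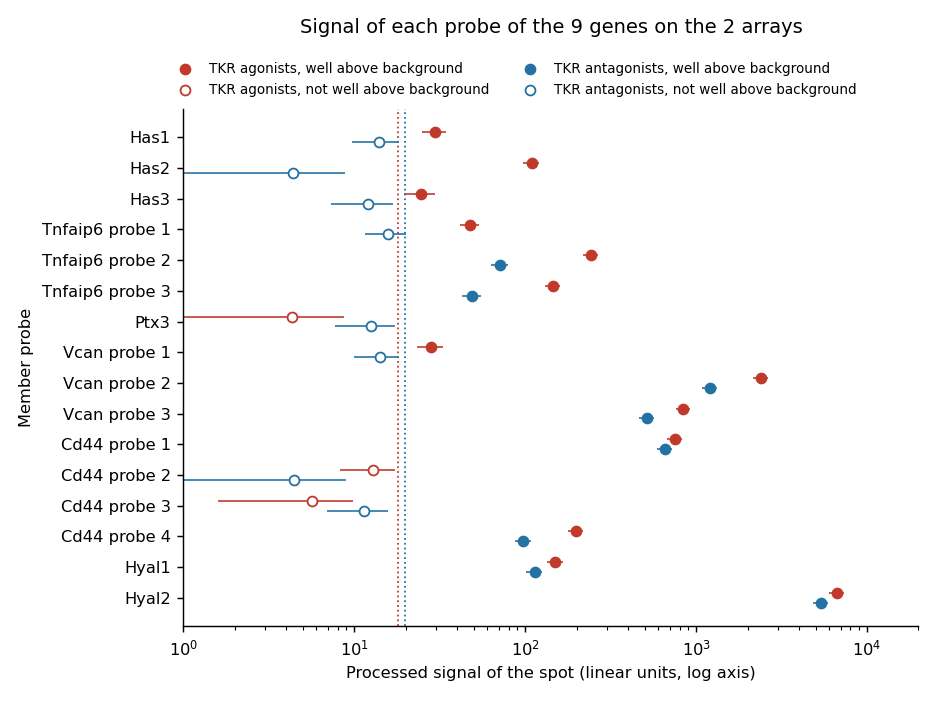
Processed signal (linear units on a log axis) of each probe of the 9 genes with TKR agonists (red) and TKR antagonists (blue). Filled points are well above background, open points are not, bars are the software's spot error (cut at 1 on the left), and dotted lines mark the lowest signal well above background on each array. All 3 synthases are filled with the agonists and open with the antagonists, and both spots of Ptx3 are open.

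The hyaluronan synthases differed most in detection. Has2, the synthase that cumulus cells use, had a processed signal of 109 ± 11.7 units with the agonists, from a spot of 143 over a local background of 36. With the antagonists its signal was 4.41 ± 4.43 units, from a spot of 52 over a local background of 40, and the software did not find it different from that background. Among the 308 negative control spots of each array, 1 was as bright as Has2 with the agonists and 143 were with the antagonists. Has2 was therefore bright on one array and at the level of empty probes on the other.

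Because a value at background has no meaningful ratio, the difference of Has2 was given as a lower bound. The agonist value, scaled by its array's 75th percentile, was set against the lowest signal well above background on the antagonist array, 19.9 units, scaled in the same way. On this basis the agonist value of Has2 exceeded the other at least 4.65-fold. The bound was 1.77 after normexp background correction, which adds 50 units to every spot, and 5.63 with scaling on spike-in controls.

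Whole pieces of ovary were measured, so fewer cells of a type and less RNA per cell cannot be told apart. Granulosa markers (9 of 9), oocyte markers (8 of 8) and theca markers (4 of 5 matched) were well above background. Surface epithelium markers had a higher scaled level with the agonists in 8 of 8 genes, with a summed level of 37.4 against 17.5 in units of the array's 75th percentile. Summed levels here are over all matched genes of a list, those detected on 1 array or on neither included. Endothelial markers measured on both arrays were higher in 6 of 7 (72.5 against 59.6), macrophage markers in 6 of 6 (13.4 against 9.90), smooth muscle markers in 4 of 4 (37.9 against 23.2) and stromal markers in 5 of 6 (403 against 337). Granulosa markers were higher in 3 of 9 (156 against 174). Oocyte markers were higher in 5 of 8 (244.1 against 251.5), and theca markers measured on both arrays in 2 of 4 (85.1 against 84.1). Cd163 was well above background on neither array, and Cd68 and Insl3 were not matched to a probe. The part of these cell types in the values of Has2, Tnfaip6, Vcan, Lyve1, Stab1 and the other genes was not tested.

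Has1 had 29.8 ± 4.79 units with the agonists and 14.01 ± 4.37 with the antagonists, where it was not well above background. Its difference had a bound of at least 1.27-fold. Has3 had 24.7 ± 5.08 units with the agonists and 12.05 ± 4.78 with the antagonists, again not well above background, and a bound of at least 1.05-fold. Both genes lay just above the limit of 18.1 units on the agonist array and just below that of the antagonist array, with spot errors on the log2 scale of 0.23 for Has1 and 0.30 for Has3 on the agonist array. On that scale the bound of Has1, 0.34, exceeded its error and that of Has3, 0.07, did not. With normexp the bound of Has1 fell under 1, so that no fold could be given.

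Tnfaip6 was the member with the largest measured ratio. Its brightest probe (Tnfaip6 probe 2, A_55_P2147081) had 243 ± 24.5 units with the agonists and 71.1 ± 8.17 with the antagonists. The next probe of the same transcript, NM_009398 (probe 3, A_55_P2147083), had 146 ± 15.0 and 48.9 ± 6.30 units. Another probe (probe 1, A_55_P2001818) had 47.4 ± 6.11 units with the agonists and 15.8 ± 4.33 with the antagonists, the last not well above background. All 3 probes were thus brighter with the agonists by more than their spot errors.

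A log2 ratio here is the scaled log2 signal with the agonists minus that with the antagonists, so that 1 stands for a 2-fold difference. The log2 ratio of Tnfaip6 was 1.53 ± 0.22 at the brightest probe, or 2.89-fold, and 1.33 ± 0.24 at the next. These probes differed by 0.20, which was within the error of that difference, 0.32. The dimmest probe gave a bound of at least 2.02-fold, or 1.01 on the log2 scale, which was 0.96 with median scaling, 0.97 with quantile normalization and 0.25 with normexp. Of the 15260 genes well above background on both arrays, 1.54% reached or passed the ratio of the brightest probe. That share covers genes of every brightness, whereas Tnfaip6 was dim. Among all genes in its bin of mean signal the 95th percentile was 1.334. The brightest probe passed this value, and the next, at 1.333, did not. Over the settings the ratio of the brightest probe lay between 0.86 with normexp, where it no longer reached 2-fold, and 1.80 with spike-in scaling. The settings that change only how spots are summarised could not move it, as it has 1 spot.

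Versican was bright on both arrays. Its brightest probe (Vcan probe 2, A_55_P1960202, NM_001081249) had 2408 ± 241 units with the agonists and 1211 ± 121 with the antagonists, which gave a log2 ratio of 0.75 ± 0.20 or 1.68-fold. A probe for another of its transcripts (probe 3, A_55_P1960208, NM_172955) had 843 ± 84.4 and 518 ± 51.9 units, a log2 ratio of 0.46 ± 0.20. The remaining one (probe 1, A_52_P1044655) is annotated to the same transcript as probe 3 but was far dimmer. It had 28.1 ± 4.71 units with the agonists and 14.1 ± 4.23 with the antagonists, where it was not well above background. Its bound of at least 1.20-fold fell under 1 with normexp. The difference of 0.29 between the measured probes equalled its error of 0.29, so the array did not separate these transcripts. Of all genes measured on both arrays, 6.59% had a ratio at least as large as that of the brightest Vcan probe. Among all genes in its bin of mean signal the 95th percentile was 0.61, which its ratio passed. Vcan probe 3, at 0.46, lay below the 95th percentile of its own bin, 0.89, and 11.8% of genes reached its ratio. The ratio of this Vcan probe lay between 0.69 and 1.03 over the settings.

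The sequences upstream of 3 of these genes are shown, whose probes were higher with the agonists and for which a RefSeq promoter entry was at hand. An entry was matched for 7 of the 9 members, all but Has2 and Has3. Cd44, with 1 probe at a log2 ratio of 0.79, and Hyal1 and Hyal2 also had an entry and are not shown. The 3 are therefore examples and not every gene that meets this description. Each run holds the 250 bases before the RefSeq transcript start in GRCm38.p6, 5′ to 3′ on the gene's own strand, at chr2:52037863-52038112 on the plus strand for Tnfaip6, chr17:17855189-17855438 on the minus strand for Has1 and chr13:89742513-89742762 on the minus strand for Vcan. Capitals mark every match to the motifs searched on both strands, which were chosen after the sequences were seen: the core promoter element TATAAA, the Sp1-type element GGGCGG, called GC box below, the AP-1 element TGANTCA, the STAT element TTCNNNGAA and the cAMP response element TGACGTCA.
Tnfaip6: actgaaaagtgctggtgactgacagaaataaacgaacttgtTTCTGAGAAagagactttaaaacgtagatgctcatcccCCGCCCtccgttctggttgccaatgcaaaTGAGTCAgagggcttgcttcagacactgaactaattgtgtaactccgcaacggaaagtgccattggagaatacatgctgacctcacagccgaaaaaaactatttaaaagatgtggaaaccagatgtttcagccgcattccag
Has1: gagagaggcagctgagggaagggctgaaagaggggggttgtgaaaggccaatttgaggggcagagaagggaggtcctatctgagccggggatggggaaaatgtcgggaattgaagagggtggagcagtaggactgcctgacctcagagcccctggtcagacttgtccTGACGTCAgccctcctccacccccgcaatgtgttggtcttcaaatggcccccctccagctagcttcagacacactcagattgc
Vcan: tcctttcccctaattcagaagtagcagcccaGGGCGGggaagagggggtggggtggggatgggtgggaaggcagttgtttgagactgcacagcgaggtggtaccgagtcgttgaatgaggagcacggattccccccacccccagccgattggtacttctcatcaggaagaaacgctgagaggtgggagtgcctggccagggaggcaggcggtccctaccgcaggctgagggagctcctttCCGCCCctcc

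The Tnfaip6 window holds TGAGTCA from 142 to 136 bases before the start, TTCTGAGAA from 209 to 201 bases and a GC box on the other strand from 171 to 166 bases. The Has1 window holds TGACGTCA from 83 to 76 bases before the start. The Vcan window holds a GC box on either strand. The Hyal2 window has 1 GC box and that of Hyal1 has 2 overlapping ones, while the windows of Ptx3 and Cd44 hold none of the motifs. Over all 32851 RefSeq windows of this length, TGANTCA is found in 6.75%, TTCNNNGAA in 7.02%, TGACGTCA in 1.55%, GGGCGG in 32.7% and TATAAA in 12.4%. These matches describe letters in a window and show no binding, and the arrays measured none.

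Ptx3 was not well above background on either array. Its signal was 4.34 ± 4.37 units with the agonists and 12.5 ± 4.78 with the antagonists, and 91 and 2 of the 308 negative control spots were at least as bright. No ratio is given for it.

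CD44 was measured by 4 probes for NM_009851 that differed from one another. The brightest (Cd44 probe 1, A_55_P2064043) had 750 ± 75.1 units with the agonists and 659 ± 66.0 with the antagonists, which gave a log2 ratio of -0.05 ± 0.20. Another (probe 4, A_55_P2166501) had 199 ± 20.3 and 97.4 ± 10.7 units, a log2 ratio of 0.79 ± 0.22. The other 2 probes lay between 4.46 and 12.8 units and were well above background on neither array. The measured probes differed by 0.84, beyond the error of that difference, 0.30, so that CD44 had no single ratio on these arrays. The ratio at the brightest probe changed sign with the scaling, from -0.11 to 0.22, and that at the other probe stayed between 0.32 and 1.06.

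The hyaluronidases were nearly level. Hyal2, which is anchored at the cell surface and cuts long chains, had 6646 ± 665 units with the agonists and 5391 ± 539 with the antagonists, which gave a log2 ratio of 0.06 ± 0.20. Hyal1, the lysosomal enzyme that cuts the pieces further, had 150 ± 15.6 and 113 ± 12.2 units, a log2 ratio of 0.16 ± 0.22. Both differences were smaller than their spot errors. Relative to the median of all probes Hyal1 had 0.26, which exceeded its error. Its ratio lay between -0.02 with normexp and 0.44 with spike-in scaling. The annotated span of Hyal1 overlaps those of its neighbours Naa80 and Hyal3, and where its probe lies in the transcript was not analysed here.

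Over the 5 members measured on both arrays, 1 (Tnfaip6) passed 2-fold upward with the agonists and 0 passed it downward, against 4.01% higher and 0.577% lower among the 15260 genes so measured. The median log2 ratio was 0.16 for these 5 members and -0.10 for all such genes. All 5 lay above the median of all genes. Relative to the median of all probes, which itself moved between -0.15 and 0.18 with the scaling, the brightest probes had 1.63 for Tnfaip6, 0.85 for Vcan, 0.26 for Hyal1, 0.16 for Hyal2 and 0.04 for Cd44. Subtraction of this median leaves values that scaling by a constant cannot move.

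**Figure D2:**
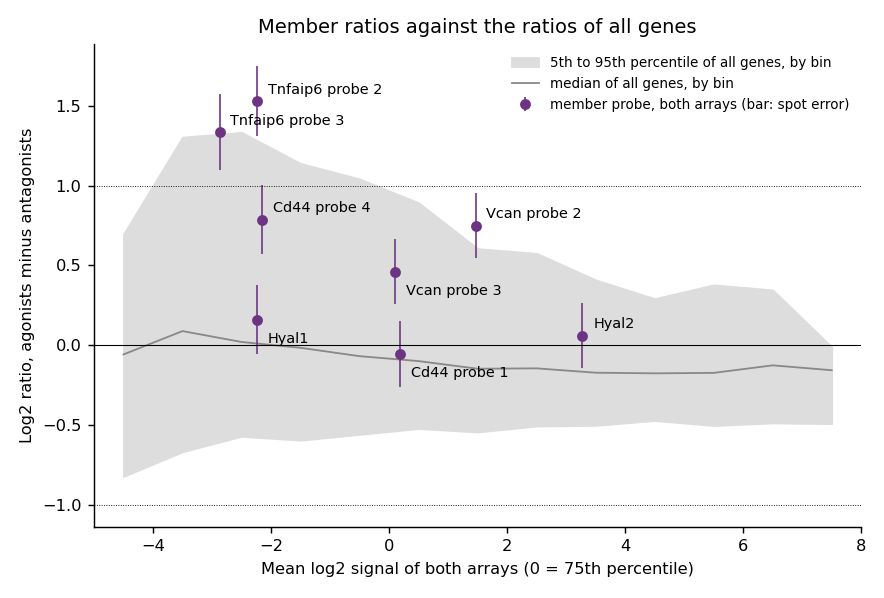
Log2 ratio, agonists minus antagonists, of the 8 member probes measured on both arrays against their mean log2 signal (0 is the 75th percentile of each array). Bars are spot errors, the grey band spans the 5th to 95th percentile of all genes in bins of 1 log2 unit, and dotted lines mark 2-fold. Both Tnfaip6 probes lie above the 2-fold line, and Hyal1, Hyal2 and Cd44 probe 1 lie near 0.

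The precision of a single spot can be judged from probes that the array carries at 10 spots. For the 284 of them well above background at every spot, the median SD of the log2 ratio between spots was 0.07. It was 0.25 for the 28 probes with a mean scaled signal below -3 on the log2 scale, which is the range of Has1 and Has3, 0.11 for the 93 probes from -3 to 0, where Tnfaip6, Hyal1 and Cd44 probe 4 lie, and 0.06 for the 163 brighter ones. The ratios of Tnfaip6 and Vcan exceed these SDs, and that of Hyal1, 0.16, exceeds the 0.11 of its range. The bound of Has1 is close to the SD of its range, and that of Has3 is below it.

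**Figure D3:**
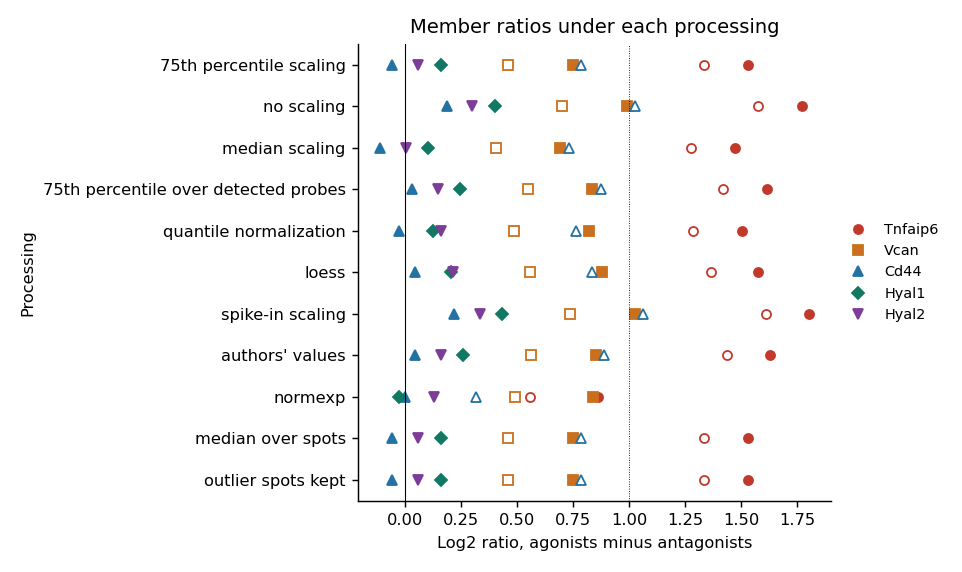
Log2 ratio of each member probe measured on both arrays (x axis) under each processing (y axis). Filled symbols are the brightest probe of a gene and open symbols its other probes. Tnfaip6 stays to the right of the 2-fold line except with normexp, and the brightest Cd44 probe moves across 0.

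The rest of the pathway was read from a list of 51 other genes of hyaluronan supply, binding, cutting and cumulus expansion, ordered by role. Of these, 36 were well above background on both arrays, 6 on the agonist array only, 0 on the antagonist array only and 9 on neither. With the agonists, 7 of the 36 were 2-fold or more higher and 1 was 2-fold or more lower, against 4.01% and 0.577% of all genes so measured, and the median log2 ratio was 0.10 against -0.10. Of the 42 detected at all, 6 were detected with the agonists only, where the share over all genes was 5.20%. Few of all genes were detected on the antagonist array only, so the count of 0 is no result about this list. This list, like the members, was chosen with earlier results of these data known, so the counts of both describe and do not test.

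Versican is cut during cumulus expansion by proteases of the ADAMTS family, and 3 of the 5 listed were at least 2-fold higher, a size that 4.01% of all genes reached. Adamts4 had 1251 units with the agonists and 259 with the antagonists, which gave a log2 ratio of 2.03. Adamts1, the protease that the LH surge induces in granulosa cells, had 4291 and 1346 units, a log2 ratio of 1.43. Adamts15 had 169 and 61.5 units, a log2 ratio of 1.22 that was 0.68 with normexp. Adamts15 lay below the 95th percentile of all genes in its bin of mean signal, and Adamts1 and Adamts4 lay above that of theirs. Adamts9 had 0.04, and Adamts5 had -0.52 at signals of 28.2 and 34.2 units. Of the 5 listed, 4 had a ratio above 0, or 3 with median scaling, where Adamts9 had -0.01.

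The heavy chains that TSG-6 moves onto hyaluronan come from genes of the Itih family. Of this family 5 genes were measured on both arrays, and whether each supplies such a chain was not examined. All 5 had a ratio above 0, with a median of 0.80 against -0.10 for all genes, and 2 were at least 2-fold higher, against 4.01% of all genes. Itih3 had 180 units with the agonists and 44.8 with the antagonists, which gave a log2 ratio of 1.76. Itih2 had 66.0 and 27.1 units and a ratio of 1.04. Itih1 had 0.80, Itih5 had 0.59 at 3430 and 1931 units, and Itih4 had 0.40. The median and share of all genes cover genes of every brightness, whereas most Itih genes were dim. Against all genes in their bin of mean signal, all 5 lay above the median. Itih2 and Itih4 lay below the 95th percentile of their bin, Itih3 above it and Itih5 just above it. Itih1 lay at the edge of a bin, above the percentile there and below that of the next brighter bin. With normexp 3 of the 5 were above 0 and the median was 0.18. In that setting Itih2 was 0.18, Itih1 was -0.07 and Itih4 was -0.01, while Itih3 was 0.81. The lowest ratio of Itih5 in any setting was 0.53. Ambp, which encodes the light chain bikunin, was not well above background on either array.

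Of the 8 other receptors, binders and breakdown enzymes measured on both arrays, 5 had a ratio below 0. The median of all genes was itself below 0, at -0.10, and 5 of the 8 lay above it. Among the 8, 2 were at least 2-fold higher, against 4.01% of all genes, and the median of the 8 was -0.05. Lyve1, which marks lymphatic endothelium and some macrophages, had 137 units with the agonists and 32.3 with the antagonists, which gave a log2 ratio of 1.84 that was 0.79 with normexp. Stab1, a scavenger receptor of macrophages and sinusoidal endothelium, had 1974 and 501 units, a log2 ratio of 1.74. Its relative Stab2 had 95.2 units with the agonists and 19.3 with the antagonists, not well above background there, and was at least 4.05-fold higher, a bound that fell under 2-fold with normexp, to 0.58 on the log2 scale. Hmmr, an intracellular hyaluronan-binding protein of dividing cells, went the other way at 1288 and 1666 units, a log2 ratio of -0.61. Layn, which encodes the receptor layilin, had -0.08, and Habp4, named as a hyaluronan-binding protein, had -0.86.

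The supply of sugar precursors did not differ in this way. Ugdh, which makes UDP-glucuronic acid, had 6694 and 4962 units and a log2 ratio of 0.19. The 7 supply genes ranged from -0.73 for Gfpt2 to 0.19, with a median of -0.20, and none passed 2-fold. Of the 6 other genes that cut hyaluronan, Hyal3, Hyal4, Hyal5, Spam1 and Cemip were well above background on neither array, and Cemip2 had -0.09. Of the link proteins and related proteoglycans, Bcan was at least 2-fold lower at 575 units with the agonists and 1093 with the antagonists, which gave a log2 ratio of -1.17, but its other probe had -0.32, and with spike-in scaling the ratio was -0.89. Hapln1, the link protein, had 21.6 units with the agonists and 5.91 with the antagonists, too dim for a fold.

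Of the genes that drive cumulus expansion, Ereg, an EGF-like ligand, had 127 units with the agonists and 14.2 with the antagonists, where it was not well above background, and was at least 5.38-fold higher, a bound that was 1.97 with normexp. Ptgs2, which encodes COX-2, had 37.2 and 8.65 units, the latter not well above background, and a bound of at least 1.58-fold that was 1.16 with normexp. Btc had a bound of 1.04, which fell under 1 with normexp, and Areg a log2 ratio of 0.60 at 44.1 and 24.7 units, which was 0.02 with normexp. Ptger2, a receptor of prostaglandin E2, had 0.64. Gdf9 and Bmp15, the oocyte factors of cumulus expansion, had -0.08 and 0.21. The probes of Pgr disagreed, at -0.53 and 1.04, and the LH receptor gene Lhcgr was well above background on neither array.

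**Figure D4:**
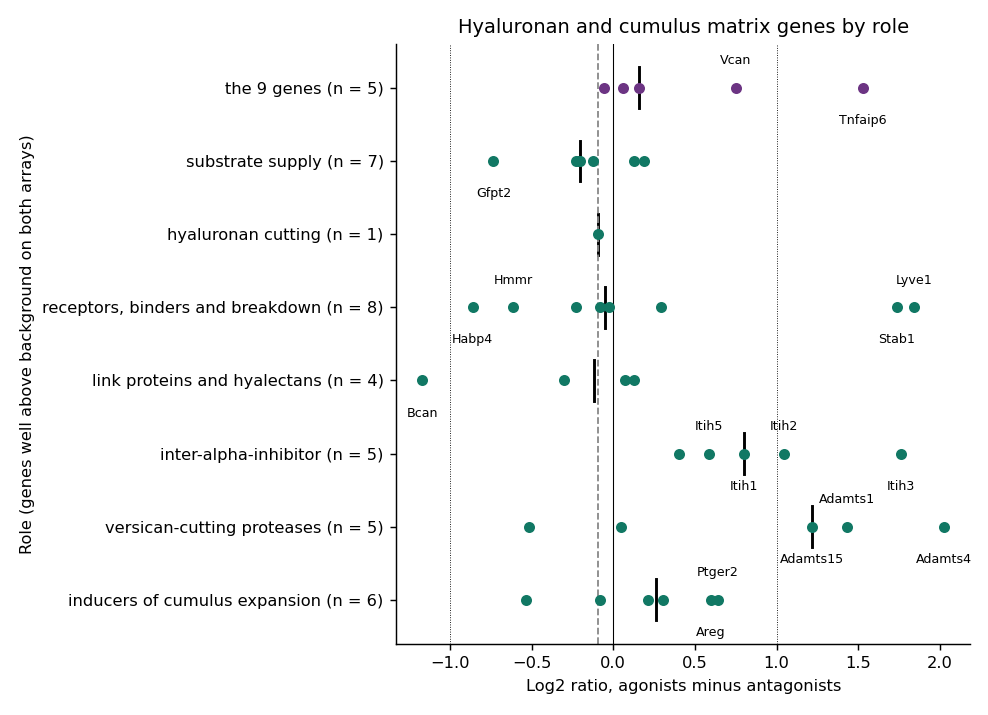
Log2 ratio, agonists minus antagonists, of the 5 members and the 36 other hyaluronan genes that were well above background on both arrays, by role, each gene at its brightest probe. Black bars are medians, the dashed line is the median of all genes (-0.10) and dotted lines mark 2-fold. The Itih genes and 3 of the 5 proteases lie to the right, and the supply genes lie between -0.73 and 0.19.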

How the data were processed

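RNA of cultured ovaries was measured on 2 Agilent mouse arrays (1 per group). The authors had them read with Agilent Feature Extraction 10.10.1.1 and deposited, per the file headers, the processed spot intensity on a linear scale, background-corrected but not scaled between arrays, with other 0 or 1 marks of the software. Their deposited value table was the same intensity times 1.99 for the agonists and 2.19 for the antagonists. The methods state no scaling. Here, control and outlier spots were left out, log2 signals were reduced by each array's 75th percentile (672 and 569 units), and spots of a probe were averaged. A probe counted as detected if more than 50% of its spots carried that mark. Probes were named by RefSeq accession through a GRCm38 gene table, since the files hold no gene name, and a gene was represented by its brightest detected probe. Probe sequences and positions were not analysed here. Of the spots, 65.4% and 61.6% were well above background, which, with the number of arrays, limits the precision. The members and lists were chosen with earlier results of these data known. Named are all members, the listed genes with a ratio or bound past 2-fold, and Ptgs2, Hmmr, Lyve1, Hapln1, the Itih genes, Ambp, Adamts1 and Ugdh for their role. Other listed genes were named after their values were seen. Alternatives were other scalings (loess span 0.3), the authors' values, normexp (limma 3.58.1, R 4.3.3, offset 50, on median spot signals), other spot summaries, dim filters and a 1.5-fold threshold. Python 3.11.15, numpy 2.4.6, pandas 2.3.3 and statsmodels 0.14.6 were used, and the ratio was tested on simulated data.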

Additional observations from a re-analysis of the deposited data

How the results depend on the processing

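No paired analysis was possible because the groups hold a single array each, with no test made. Of the values of single member probes under the alternatives, 99 moved by less than the error of the spot and 31 by more. Among the 99 are those with the median over spots and with outlier spots kept. These settings could not move a member probe, since each had 1 spot and none was marked as an outlier. With no scaling the log2 bounds were 0.58 for Has1 and 2.46 for Has2, the log2 ratios 1.77 for Tnfaip6, 0.99 for Vcan, 0.19 for Cd44, 0.40 for Hyal1 and 0.30 for Hyal2, the members' median 0.40, and 0 other hyaluronan genes were 2-fold lower. With spike-in scaling these were 0.62, 2.49, 1.80, 1.03, 0.22, 0.44, 0.34, 0.44 and 0, and 2 members were 2-fold higher. These scalings move all genes alike. With normexp the log2 bound of Has1 was -0.029 and that of Has2 was 0.83, Tnfaip6 was 0.86, 0 members and 3 other genes were 2-fold higher. With loess the bound of Has2 was 2.38. With no filter on dim probes, 2 members were higher and 1 lower, 13 other genes higher and 3 lower, and the members' median was 0.75. With a 1.5-fold threshold, 2 members and 11 other genes were higher and 4 other genes lower. The mean over the probes of a gene gave a median of 0.37. Apart from the settings named, the cause was not tested. Signal over background limits the synthases and Ptx3.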

Other observations

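The transcript antisense to Has2, Has2os (NR_002874), was looked up after the values of Has2 were seen. Its probe had 57.7 ± 7.23 units with the agonists and 46.2 ± 6.50 with the antagonists and was well above background on both arrays, a log2 ratio of 0.08 ± 0.27 that ranged from -0.14 to 0.35 over the settings. Has2os was therefore measured on the antagonist array, where Has2 was at background.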
